A study of Rattus norvegicus with 35 samples.

Results

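The change in gene expression after ultraviolet radiation (UV) was compared between 2 cell populations from neonatal rat ventricles, CM-enriched fractions (CM, cardiac myocytes) and cultures of fibroblasts (FB). The measure was a difference of changes: the log2 change after UV in CM-enriched fractions, UV-treated minus sham-treated, from which the same change in cultures of fibroblasts was subtracted. A difference above 0 thus stands for a stronger rise or a weaker fall in CM-enriched fractions, and a value of 1 for a factor of 2. It was computed for all 8740 probe-sets of the rat genome array (Affymetrix) that are not controls, a probe-set being the group of short probes on the array that reads 1 transcript. Of the 35 arrays of the series, 11 belong to the UV experiments.

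The 4 groups were UV-treated CM-enriched fractions (CM UV, n = 3 arrays), sham-treated CM-enriched fractions (CM sham-UV, n = 2), UV-treated fibroblasts (FB UV, n = 3) and sham-treated fibroblasts (FB sham-UV, n = 3). The titles call the CM arrays cardiac cells. Treated cells received 10 J/m2 of UVC and control cells the same handling without radiation, and RNA was taken 24 h later. Arrays were paired by the number in the title, which was taken to mark the experiment. Since no sham-treated CM array carries the number of the third UV-treated one, 2 CM pairs and 3 FB pairs carry every difference given here, and values on that unpaired array are shown beside them. The populations also differed in culture: medium held horse serum for CM and foetal bovine serum for fibroblasts, fibroblasts were subcultured, and only CM were sorted by centrifugal elutriation, after the radiation and before RNA isolation. The part that these steps had in a difference cannot be told apart from that of the cell population.

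UVC is absorbed by DNA and leaves helix-distorting photolesions, mainly pyrimidine dimers. RNA polymerase stalls at such a lesion in the transcribed strand, so that a long gene is more likely to be interrupted than a short one, until nucleotide excision repair has removed the damage. Cells answer with p53, with stress kinases that act on AP-1 and with the integrated stress response, which lowers translation and induces the transcription factors ATF4 and CHOP. Cardiac myocytes have largely left the cell cycle and carry the contractile apparatus, whereas cardiac fibroblasts divide, make the matrix and, in culture, take up smooth muscle genes as myofibroblasts.

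Myocyte markers were bright in the CM-enriched fractions, and they were not at background in the fibroblasts. The 13 myocyte markers measured summed to 54911 to 57944 units of normalized intensity on CM UV arrays, 66507 to 68126 on CM sham-UV arrays, 8840 to 12872 on FB UV arrays and 21338 to 24771 on FB sham-UV arrays. The 13 fibroblast markers summed to 12889 to 17755 on CM UV arrays, 15121 to 21632 on CM sham-UV arrays, 34483 to 39985 on FB UV arrays and 43467 to 46954 on FB sham-UV arrays. Unlike the others, S100a4, 1 of the 13, was brighter on CM arrays and made up a large part of their sums. It had 6062 to 6463 in CM UV and 5467 to 5536 in CM sham-UV, against 1398 to 1659 in FB UV and 1364 to 1735 in FB sham-UV. The sum of 7 endothelial markers was 950 on 1 CM sham-UV array and 260 on the other, with 267 to 307 on CM UV arrays, 135 to 184 on FB UV arrays and 164 to 209 on FB sham-UV arrays. Macrophage and leukocyte markers (11 genes) lay within 373 to 514 in all 4 groups. In RNA from whole cultures, fewer cells of a type and less RNA per cell cannot be told apart.

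After UV, the change differed between the populations for 555 of 8740 probe-sets (6.35%) at an adjusted p of 0.05 (limma, Benjamini-Hochberg adjustment). The change was higher in CM-enriched fractions for 317 (3.63%) and lower for 238 (2.72%). At the stricter level of 0.005 the numbers were 72 (0.824%) and 61 (0.698%), and at an unadjusted p of 0.05 there were 1734 probe-sets (19.8%). Of the 555, 468 carry a single gene symbol and stand for 393 genes. Requiring a call in 1 direction from 50% or more of the probe-sets that read a gene left 182 genes of 4736 with a higher change in CM-enriched fractions and 147 with a lower change.

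These numbers rest on a fit over all 35 arrays, in which the experiment number is a block and all stressors share the estimate of the spread. Fitted alone, the 11 UV and sham-UV arrays leave 3 residual degrees of freedom, and 8 probe-sets passed, 5 higher and 3 lower; they read Acot1, Amhr2, Nrg1 and Camk2d (higher), Chrna5, Fdps and Kcnj3 (lower) and a transcript with no single symbol, and all but Acot1 were among the 555. Without the block the numbers were 52 and 26, and with a random block 178 and 113. All 555 kept the sign of their difference under these 3 settings, which use the same arrays and so left it little room to change.

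The other stressors gave few differences of this kind. In the same fit, the change after ionising radiation (8.5 Gy of X-rays) differed between the populations for 6 probe-sets (0.0686%; 3 higher and 3 lower, 0.0343% each), and the change after cyclic stretch for 0 (limma). Scd2, named below, was among the 6, with a difference of -1.44 after ionising radiation (adjusted p = 0.0429, limma) and -1.15 after UV. At an unadjusted p of 0.05 there were 757 (8.66%) after ionising radiation and 365 (4.18%) after stretch. The CM samples were not alike. By the study, the share of myocytes was highest after UV, lower after ionising radiation and lowest for stretch, where no elutriation was done. Its part in these counts was not tested. At its own threshold, the study found the contrast between more up-regulated genes in CM and more down-regulated genes in fibroblasts strongest after stretch. It counted calls within each population. Tested directly, the difference after UV departed from the difference after ionising radiation for 157 probe-sets (1.8%; 77 above, 0.881%, and 80 below, 0.915%), of which 144 were among the 555.

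Most of the differences came from a change that was called in a single population. On its own, the change in CM-enriched fractions was called for 16.8% of all probe-sets (8.62% up and 8.16% down) and the change in fibroblasts for 22.9% (11.7% up and 11.2% down). Of the 555, 235 were called in fibroblasts alone (141 fell and 94 rose there) and 163 in CM-enriched fractions alone (78 rose and 85 fell). Both populations changed in the same direction for 107: 64 fell in both and further in fibroblasts, 11 fell in both and further in CM-enriched fractions, 19 rose in both and further in CM-enriched fractions, and 13 rose in both and further in fibroblasts. Opposite changes, with both single changes called, were found for 36 probe-sets (31 genes and 4 probe-sets with no single symbol), 10 of them up in CM-enriched fractions and down in fibroblasts, and 26 down in CM-enriched fractions and up in fibroblasts. The remaining 14 were called in neither population alone. In 19 of the 555, all arrays of 1 population lay at the floor, the lowest value allowed (6.88 units, the 20th percentile of scaled intensities): 9 in CM-enriched fractions and 10 in fibroblasts.

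**Figure D1:**
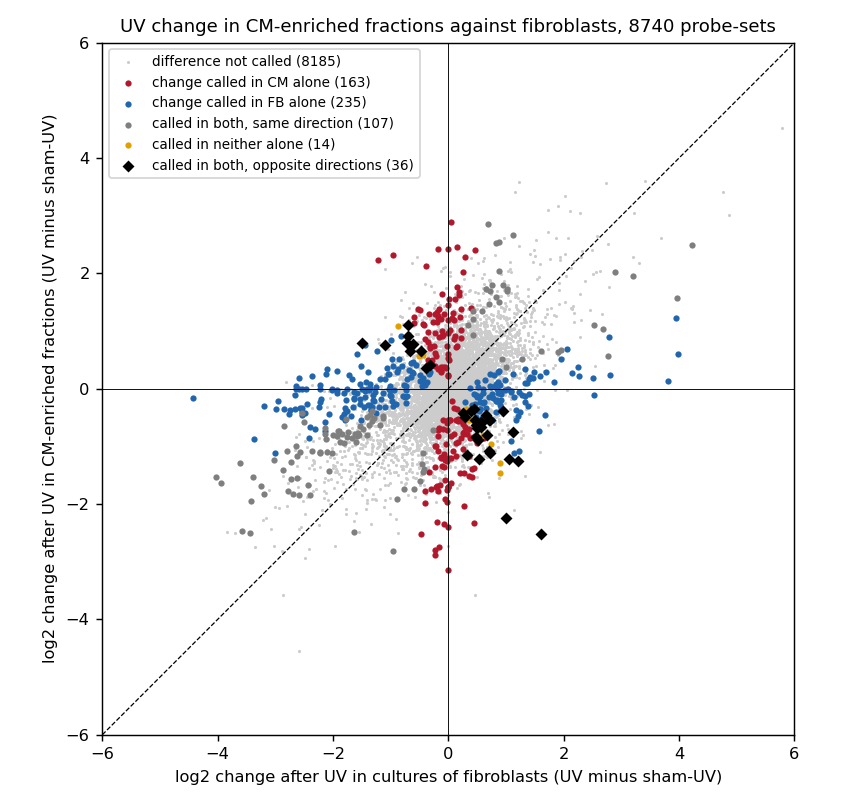
Log2 change after UV of each of 8740 probe-sets in CM-enriched fractions (vertical axis) against cultures of fibroblasts (horizontal axis), each the mean of its pairs. Coloured points are the 555 probe-sets with a called difference, sorted by the population in which the change itself was called; black diamonds are the 36 opposite changes, of which 26 lie at the lower right, and the dashed line marks equal changes.

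Over all probe-sets the changes in the 2 populations correlated with a Pearson r of 0.518 and a Spearman rho of 0.425, a description across probe-sets, which are not independent. For all 555 called probe-sets, each CM pair lay on the same side of all 3 FB pairs. Over all 8740, both CM pairs lay above every FB pair for 15.2% and below every FB pair for 15.8%.

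Among genes up-regulated in CM-enriched fractions and down-regulated in fibroblasts, the largest difference was that of Slc40a1 (probe-set U76714_at), which encodes ferroportin, the iron exporter. Its intensity was 56.7 and 67.4 in CM UV pairs 1 and 2 (63.2 on the unpaired array), against 27.3 and 46.2 in CM sham-UV. In fibroblasts it was 156, 135 and 238 after UV, against 364, 526 and 580 after sham treatment. All treated arrays were thus above the controls in CM-enriched fractions and below them in fibroblasts, and the difference was 2.29 (SE 0.277, adjusted p = 0.000695, limma).

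Trib3, a pseudokinase induced by ATF4 and CHOP, had 87.7 and 59.6 in CM UV (79.5 unpaired), against 40.2 and 45.2 in CM sham-UV, and 285, 196 and 199 in FB UV, against 651, 426 and 390 in FB sham-UV (difference 1.86, SE 0.31, adjusted p = 0.00445). Pdgfa, the A chain of platelet-derived growth factor and a mitogen of fibroblasts, had 372 and 247 in CM UV (216 unpaired), against 133 and 195 in CM sham-UV, and 285, 310 and 310 in FB UV, against 528, 537 and 413 in FB sham-UV (difference 1.61, SE 0.27, adjusted p = 0.00453). Zfp36l1 encodes a protein that speeds the decay of mRNA with AU-rich elements. It had 979 and 1157 in CM UV (1199 unpaired), against 425 and 570 in CM sham-UV, and 881, 600 and 999 in FB UV, against 1598, 1328 and 1073 in FB sham-UV (difference 1.81, SE 0.367, adjusted p = 0.0124). For these 3 genes too, treated and control arrays did not overlap within either population. Without CM pair 1, Zfp36l1 no longer passed (adjusted p = 0.0788), while its second probe-set gave a difference of 1.95 (adjusted p = 0.0383). The second probe-set of Trib3 lay at 0.55 (adjusted p = 0.840).

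In the other direction, the largest difference was that of Arg1, arginase 1, which turns arginine into ornithine and urea. Its intensity was at the floor of 6.88 on both paired CM UV arrays and 28.8 on the unpaired array, against 75 and 20.7 in CM sham-UV. In fibroblasts it was 77.5, 68.4 and 54.2 after UV, against 28.4, 20 and 18.3 after sham treatment. The difference was -4.12 (SE 0.572, adjusted p = 0.00152), and since the treated CM arrays of the pairs cannot go lower, the fall in CM-enriched fractions is a lower bound. The unpaired CM array lay between the 2 CM controls. The higher control, for Arg1 and for Ackr3 below, was the CM sham-UV array with an endothelial marker sum of 950. The part of that array in these values was not tested. Without CM pair 1 the differences were -3.19 for Arg1 and -2.82 for Ackr3.

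Ackr3 (also CXCR7), a receptor that takes up the chemokine CXCL12, had 27.0 and 14.0 in CM UV (56.4 unpaired), against 170 and 49.4 in CM sham-UV, and 117, 113 and 94.6 in FB UV, against 71.4, 81.4 and 27.1 in FB sham-UV (difference -3.23, SE 0.426, adjusted p = 0.00114). Ier3, an immediate early gene that modulates survival and ERK signalling, had 233 and 297 in CM UV (380 unpaired), against 587 and 521 in CM sham-UV, and 357, 361 and 515 in FB UV, against 182, 243 and 350 in FB sham-UV (difference -1.78, SE 0.193, adjusted p = 0.000317). Nes, the intermediate filament nestin, had 119 and 180 in CM UV (180 unpaired), against 272 and 223 in CM sham-UV, and 211, 298 and 177 in FB UV, against 102, 120 and 87.8 in FB sham-UV (difference -1.88, SE 0.207, adjusted p = 0.000331). Treated arrays lay below the controls in CM-enriched fractions and above them in fibroblasts for Ier3 and Nes, whereas for Ackr3 the unpaired CM array lay above the lower control. Differences of the same kind were found for Met, the receptor of hepatocyte growth factor (-2.28, SE 0.317, adjusted p = 0.00152), and Ugdh, which makes UDP-glucuronate for conjugation and for matrix glycosaminoglycans (-1.46, SE 0.175, adjusted p = 0.000678). Ly6l (-2.45) and Ptpro, a receptor-type tyrosine phosphatase (-1.83), lost the call without CM pair 2 (adjusted p = 0.0931 and 0.0563), and Ptpro also with a floor at the 40th percentile (adjusted p = 1). Met and Ly6l still passed with that floor, but with differences of -0.29 and -0.41, and that of Arg1 was -2.16. The other genes with opposite changes had smaller differences: Pcolce, Mxd4, Decr1, Adm, Gstt1 and LOC102549726 were up in CM-enriched fractions and down in fibroblasts (0.74 to 1.51), and Sqle, Slc16a1, Msmo1, Acly, Dbnl, Lta4h, Acsl4, Scd2, Ralb, Psmd1, Ifitm3, Tpm3 and Hspe1 the reverse (-0.69 to -1.40). Other probe-sets of Met (0.09 for the brighter), Ptpro (-0.74 and -0.21), Nes (-0.45) and Ugdh (-0.62) did not pass. Nor did those of Tpm3, with -0.29 for the brightest of them and 0.36 to 0.44 for the rest. The other probe-sets of Slc40a1, Pdgfa, Zfp36l1, Ier3 and Msmo1 passed for the difference, but not for both single changes.

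**Figure D2:**
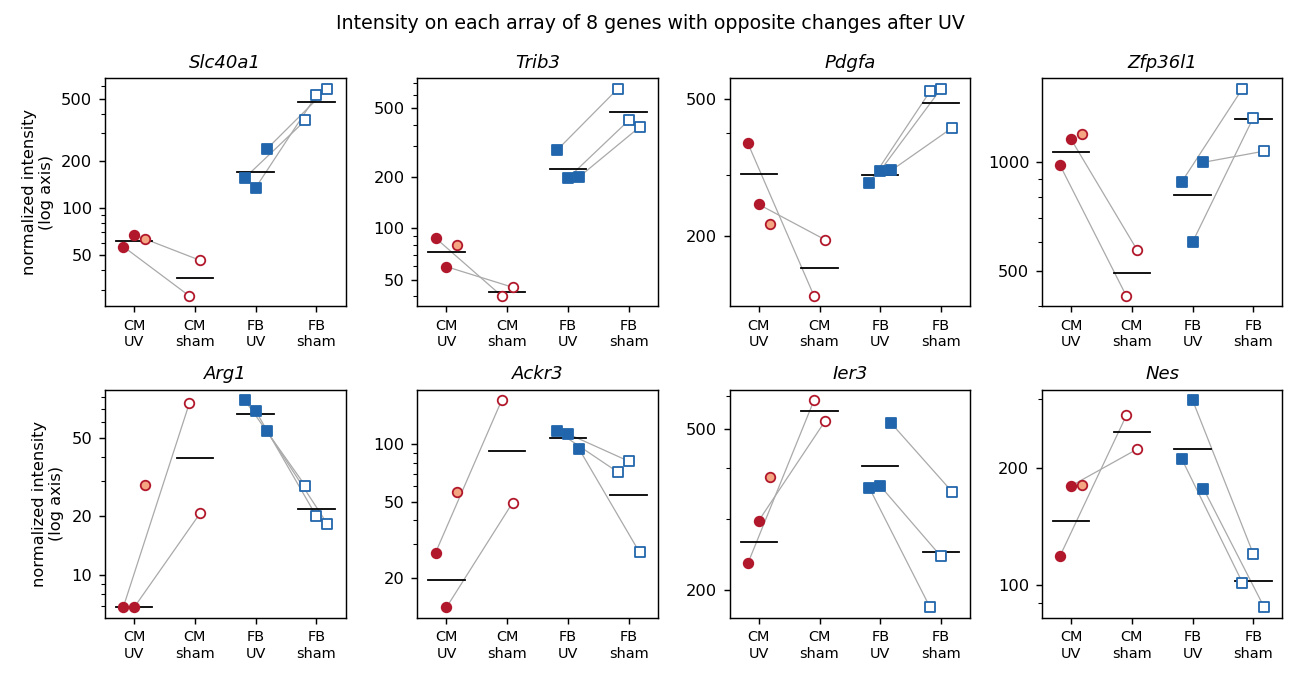
Normalized intensity (log axis) on each UV and sham-UV array of 8 genes with opposite changes, in the order CM UV, CM sham-UV, FB UV, FB sham-UV; grey lines join the arrays of a pair, pale circles mark the unpaired CM UV array and black bars the geometric mean of the paired arrays. In the upper row (Slc40a1, Trib3, Pdgfa, Zfp36l1) the lines run down from UV to sham in CM and up in fibroblasts, and in the lower row (Arg1, Ackr3, Ier3, Nes) the other way round.

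**Figure D3:**
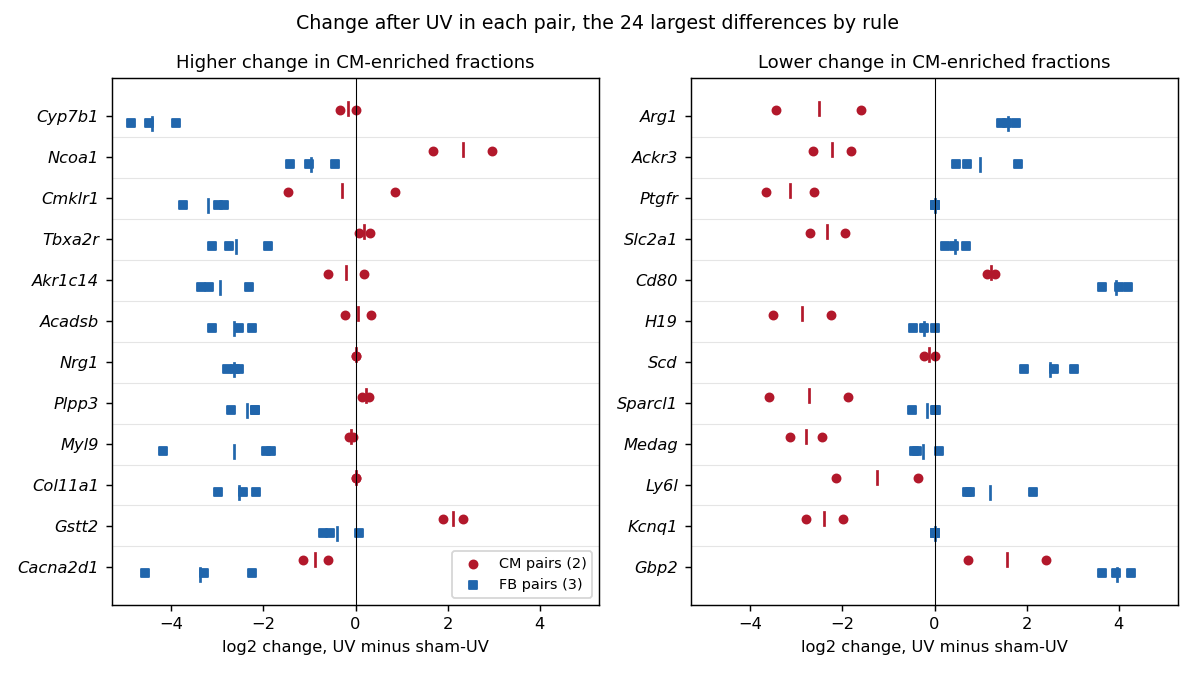
Log2 change after UV in each CM pair (red circles, n = 2) and each FB pair (blue squares, n = 3) for the 12 genes with the highest and the 12 with the lowest difference; short lines are means. The CM and FB pairs do not overlap for any of the 24, which the rule for these genes required.

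Genes of cholesterol biosynthesis had a lower change in CM-enriched fractions than in fibroblasts. The pathway runs from acetyl-CoA over mevalonate and farnesyl diphosphate to squalene and the sterols, and its genes are activated together by SREBP-2 when sterols are low. Of 16 genes measured, 10 passed, all with a lower change in CM-enriched fractions, beside 2.96% of all 4736 genes in that direction, each gene read through its brightest probe-set. None of the 10 passed with a random block or without the block (limma; 8 and 4 of the 16 at an unadjusted p of 0.05), and 1, Fdps, passed in the 11 arrays fitted alone. The estimate was below 0 for all 16. The median log2 change was -0.64 in CM-enriched fractions and 0.48 in fibroblasts, and the median difference -1.07, beside -0.0076 over all genes. The median lay below 0 in both CM pairs (-0.90 and -0.71) and above 0 in all FB pairs (0.42, 0.35 and 0.39). After ionising radiation the median difference of the list was -0.37, and after stretch 0.09. The difference after UV departed from that after ionising radiation for Msmo1 (adjusted p = 0.0281, limma) but not for Sqle (adjusted p = 0.118). By the study, cholesterol genes were down-regulated in CM after both types of radiation. The study drew up a group of cholesterol genes on these same samples, so that the list is not independent evidence of its direction.

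Fdps, farnesyl diphosphate synthase, had the smallest p of all probe-sets. Its intensity (probe-set M89945mRNA_at) was 533 and 754 in CM UV (652 unpaired), against 1763 and 2429 in CM sham-UV. In fibroblasts it was 2061, 1973 and 2222 after UV, against 2098, 2104 and 2061 after sham treatment. The treated CM arrays stood below all others, which were of like level in both populations, and the difference was -1.70 (SE 0.0707, adjusted p = 1.27e-07), with -1.69 for both other probe-sets of the gene.

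The 2 enzymes that make and oxidise squalene followed. Fdft1, squalene synthase, had 210 and 232 in CM UV (209 unpaired), against 411 and 443 in CM sham-UV, and 357, 459 and 462 in FB UV, against 323, 393 and 444 in FB sham-UV (difference -1.09, SE 0.137, adjusted p = 0.000833). Sqle, squalene epoxidase, had 272 and 404 in CM UV (419 unpaired), against 565 and 665 in CM sham-UV, and 1162, 1547 and 1448 in FB UV, against 978, 936 and 984 in FB sham-UV (difference -1.40, SE 0.18, adjusted p = 0.000939). The change was opposite for Sqle and for Msmo1, the sterol C4-methyl oxidase, which had 458 and 524 in CM UV (537 unpaired), against 882 and 869 in CM sham-UV, and 1925, 2098 and 1826 in FB UV, against 1317, 1344 and 1540 in FB sham-UV (difference -1.32, SE 0.15, adjusted p = 0.000429). The fall of Fdft1 was called in CM-enriched fractions alone. Another probe-set of Fdft1 passed (-1.08), while those at -0.50 (adjusted p = 0.247, limma) and -1.10 (adjusted p = 0.170) did not.

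The remaining members that passed were Idi1, isopentenyl diphosphate isomerase (-1.72), Mvk, mevalonate kinase (-1.60), Insig1, the sterol sensor that retains the SREBP complex in the endoplasmic reticulum (-1.52), Dhcr7 (-1.06) and Hsd17b7 (-0.997), 2 late sterol enzymes, and Cyp51, lanosterol demethylase (-0.92). Idi1, Cyp51 and Hsd17b7 were called in fibroblasts alone, where they rose by 1.17, 0.53 and 0.66, and Mvk, Insig1 and Dhcr7 in CM-enriched fractions alone, where they fell by 1.77, 1.58 and 0.70. Mvd (-1.11), Ebp (-0.71), Nsdhl (-0.66), Acat2 (-0.51), Lss (-0.39) and Srebf1, the gene of SREBP-1 (-0.08), did not pass, nor did the 4 other probe-sets of Cyp51. The number of genes that passed was 6 without CM pair 1 and 8 or 9 without any other pair of the contrast. The median difference was between -1.05 and -1.09 in the 11 arrays fitted alone, without the block and with a random block. For Fdps the adjusted p was 0.0485 with the 11 arrays, 0.0542 with a random block and 0.310 without the block.

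Among the lowest differences were those of Scd and Slc2a1. Scd, stearoyl-CoA desaturase, was at 6.88 on all 3 CM UV arrays, against 6.88 and 8.04 in CM sham-UV, and had 135, 79.7 and 132 in FB UV, against 16.6, 13.2 and 34.4 in FB sham-UV. Its difference was -2.63 (SE 0.329, adjusted p = 0.000833), in CM-enriched fractions with no room to fall, and another probe-set of the gene, above the floor in both populations, gave -1.38 (adjusted p = 0.00186). Slc2a1, the glucose transporter GLUT1, had 42.1 and 76.4 in CM UV (129 unpaired), against 275 and 295 in CM sham-UV, and 123, 146 and 102 in FB UV, against 105, 91.3 and 76.1 in FB sham-UV (difference -2.77, SE 0.24, adjusted p = 6.25e-05), and the other probe-set of the gene that passed gave -1.73 (adjusted p = 0.00196). Chosen after their values had been seen, Acly, ATP citrate lyase, which makes cytosolic acetyl-CoA (-1.28, adjusted p = 0.00330), Acacb, an acetyl-CoA carboxylase (-2.29, adjusted p = 0.0107), Acsl4, a fatty acyl-CoA ligase (-1.16, adjusted p = 0.00392) and Slc16a1, the monocarboxylate transporter MCT1 (-1.32, adjusted p = 0.000244), passed as well.

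The promoters of 4 of these genes are shown, because the genes share a pathway and a direction. They are RefSeq sequences of the rat genome GRCr8, from 250 bases before to 50 bases after the start of the gene, read along the gene. Capitals mark the CCAAT box, read as CCAAT on the strand shown or ATTGG where it lies on the other strand; this box is bound by NF-Y, which is known to act beside SREBP on promoters of sterol genes. The motif was chosen after the lists had been seen.
Fdps (chr2:176804767-176805066, minus strand): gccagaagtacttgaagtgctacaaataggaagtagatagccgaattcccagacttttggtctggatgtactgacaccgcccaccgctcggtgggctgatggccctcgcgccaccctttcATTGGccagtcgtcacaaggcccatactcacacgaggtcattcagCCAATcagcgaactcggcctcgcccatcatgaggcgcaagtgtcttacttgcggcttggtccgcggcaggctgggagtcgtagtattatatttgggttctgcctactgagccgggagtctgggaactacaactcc
Msmo1 (chr16:29746863-29747162, plus strand): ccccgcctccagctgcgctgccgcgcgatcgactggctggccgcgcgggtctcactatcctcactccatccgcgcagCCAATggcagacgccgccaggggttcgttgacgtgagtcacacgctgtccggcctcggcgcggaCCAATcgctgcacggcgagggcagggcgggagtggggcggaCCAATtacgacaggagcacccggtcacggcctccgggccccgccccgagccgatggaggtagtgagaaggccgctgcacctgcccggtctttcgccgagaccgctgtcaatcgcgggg
Idi1 (chr17:66547475-66547774, minus strand): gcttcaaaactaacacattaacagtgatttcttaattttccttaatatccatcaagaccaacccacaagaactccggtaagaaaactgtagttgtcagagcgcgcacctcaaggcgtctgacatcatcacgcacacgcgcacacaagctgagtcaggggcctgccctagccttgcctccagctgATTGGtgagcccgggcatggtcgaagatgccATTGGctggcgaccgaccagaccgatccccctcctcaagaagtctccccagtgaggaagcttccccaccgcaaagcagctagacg
Insig1 (chr4:8057720-8058019, minus strand): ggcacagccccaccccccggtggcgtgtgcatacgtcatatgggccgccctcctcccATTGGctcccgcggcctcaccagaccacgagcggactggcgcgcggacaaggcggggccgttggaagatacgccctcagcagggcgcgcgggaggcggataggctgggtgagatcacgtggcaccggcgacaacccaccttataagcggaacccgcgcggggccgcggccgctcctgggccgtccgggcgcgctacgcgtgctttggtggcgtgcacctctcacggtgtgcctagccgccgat

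A CCAAT box on either strand was present in 11 of 14 promoters of the cholesterol list (78.6%) and in 6 of the 8 called members with a sequence (75%), against 38.2% of 3871 promoters of all genes measured. In Fdps the boxes begin 130 and 85 bases before the start, in Msmo1 173, 109 and 68, in Idi1 66 and 35, and in Insig1 193. Among all genes with a lower change in CM-enriched fractions the share was 38.4%, and among those with a higher change also 38.4%. A match of letters is a description and not a site of binding.

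Of 37 sarcomere genes measured, 9 passed, all with a higher change in CM-enriched fractions, beside 3.65% of all genes in that direction. None of these passed with a random block, without the block or in the 11 arrays fitted alone (limma; 9, 6 and 15 of the 37 at an unadjusted p of 0.05), and with a random block 1 passed with a lower change. The estimate was above 0 for 26 and below 0 for 11. On its own, the change was called down for 9 of the 37 in CM-enriched fractions, and down for 22 and up for 1 in fibroblasts. The median change was -0.34 in CM-enriched fractions and -0.80 in fibroblasts, with a median difference of 0.37. The largest difference was that of Actc1, cardiac alpha-actin. Its intensity was 6138 and 7035 in CM UV (6562 unpaired), against 8385 and 8209 in CM sham-UV, and 784, 634 and 1191 in FB UV, against 5023, 4228 and 5787 in FB sham-UV. The level in treated fibroblasts was far below that of every other array, and the difference was 2.23 (SE 0.159, adjusted p = 1.71e-05, limma). Several of these genes were very bright on the CM arrays, such as Actc1, and Myl2 with 8756 on both CM sham-UV arrays. Whether a change at such levels is read in full was not tested.

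Tpm1, alpha-tropomyosin, had 5652 and 7472 in CM UV (7876 unpaired), against 7876 on both CM sham-UV arrays, and 1338, 948 and 1381 in FB UV, against 3195, 3272 and 2989 in FB sham-UV (difference 1.11, SE 0.183, adjusted p = 0.00413). Pdlim3, a Z-disc protein, differed by 1.01 (SE 0.143, adjusted p = 0.00177) and Tnni3, cardiac troponin I, by 0.92 (SE 0.168, adjusted p = 0.00762; 0.0525 without CM pair 2). The others that passed were Myl4 (1.46), Tpm2 (1.14), Myl2 (1.05), Tnnt2 (0.65) and Actn2 (0.63), which encode light chains, beta-tropomyosin, troponin T and alpha-actinin; Myl2 and Tpm2 did so narrowly, with an adjusted p of 0.0497 and 0.0499. Another probe-set of Tpm1 differed by -0.28 and did not pass. Myh7, beta-myosin heavy chain, differed by 0.83 (adjusted p = 0.063) through its brightest probe-set and by 1.36 (adjusted p = 0.0145) through the other, and Nppa, atrial natriuretic peptide, by 0.25 (adjusted p = 0.365).

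Of the 13 myocyte markers, 5 were among the genes with a higher change in CM-enriched fractions, and the estimate was above 0 for all 13; the median of their changes was -0.29 for CM-enriched fractions and -1.13 for fibroblasts. The summed myocyte markers in fibroblasts were thus 8840 to 12872 after UV, against 21338 to 24771 after sham treatment, and a change in the share of residual myocytes in these cultures cannot be told apart from a change within cells. With the list of 37 sarcomere genes, 4 to 8 passed when any pair of the contrast was left out. The median difference was 0.34 to 0.39 in the 11 arrays fitted alone, without the block and with a random block, but 0.11 with the floor at the 40th percentile, where 8 were higher and 2 lower. The study formed groups of muscle and cytoskeletal genes on these samples too, and those lists are no independent evidence of a direction.

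**Figure D4:**
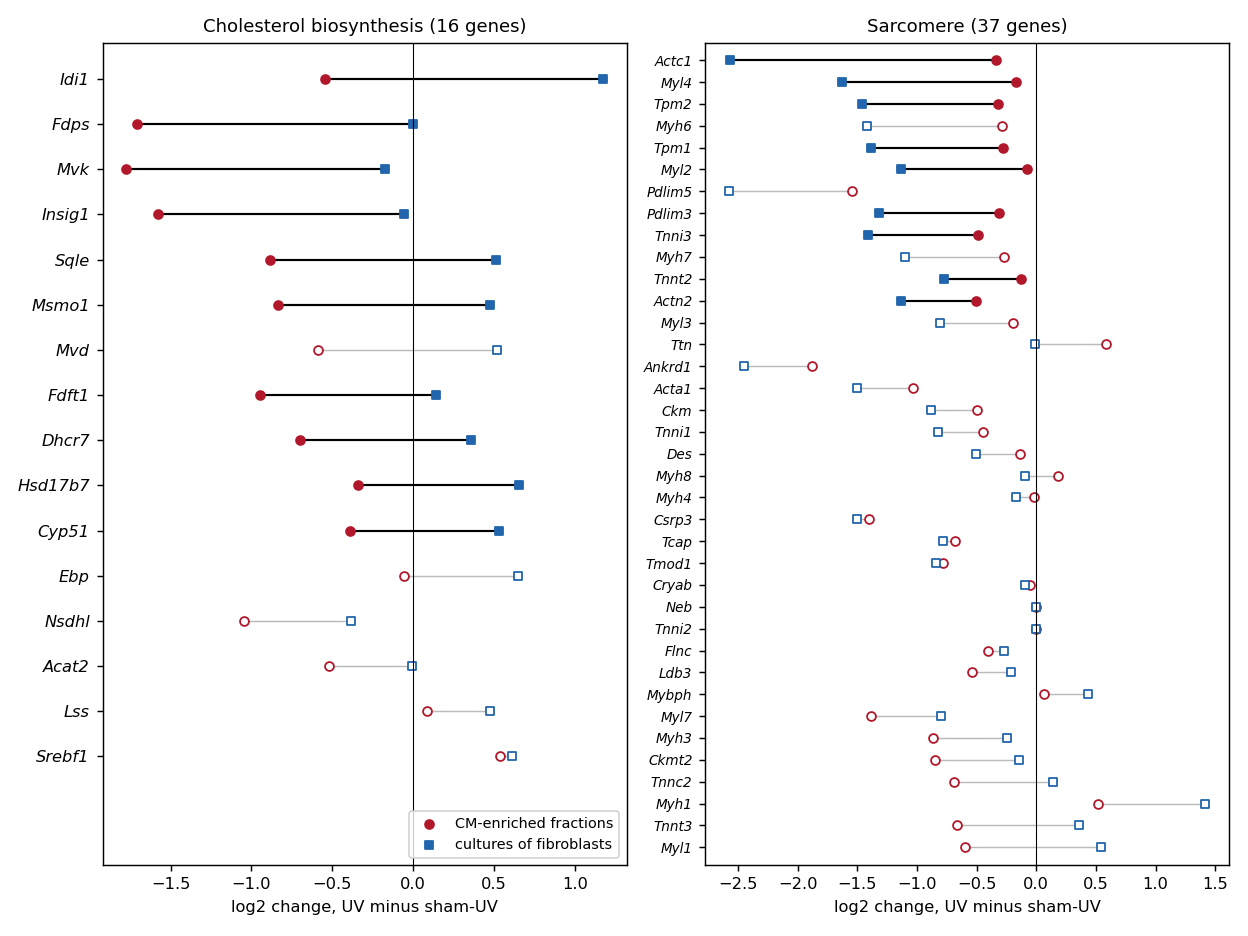
Log2 change after UV in CM-enriched fractions (red circles) and cultures of fibroblasts (blue squares) of each measured gene of 2 lists, through its brightest probe-set; filled symbols and black lines mark genes with a called difference. The CM value lies left of the FB value for all 16 genes of cholesterol biosynthesis, and right of it for the 9 called sarcomere genes.

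Contractile genes of smooth muscle and myofibroblasts showed 5 of 16 with a higher change in CM-enriched fractions and 0 with a lower change (median difference 0.27), beside 3.65% and 2.96% of all genes. Of these, 2 were called with a random block, 1 without the block and 0 in the 11 arrays fitted alone (limma; 7 of the 16 at an unadjusted p of 0.05). Itga8, the integrin alpha 8 subunit of myofibroblasts, had 38.9 and 31.1 in CM UV (14.0 unpaired), against 37.3 and 49.6 in CM sham-UV, and 50.2, 55.1 and 45.1 in FB UV, against 186, 258 and 274 in FB sham-UV (difference 1.93, SE 0.271, adjusted p = 0.00163). Myl9, the smooth muscle regulatory light chain, had 3851 and 5482 in CM UV (4696 unpaired), against 4272 and 5731 in CM sham-UV, and 859, 162 and 687 in FB UV, against 3066, 2927 and 2634 in FB sham-UV (difference 2.54, SE 0.539, adjusted p = 0.0156). The call of Myl9 was lost without CM pair 1 (adjusted p = 0.0745) and without CM pair 2 (adjusted p = 0.0625), while its other probe-set differed by 1.47 (adjusted p = 0.0031). Tagln, transgelin, differed by 0.91 (SE 0.156, adjusted p = 0.00531, and 0.0561 without CM pair 1). The other 2 were Tpm1 and Tpm2, which are also in the sarcomere list. Myl9 and Tpm1 were brighter on all CM arrays than on any FB array. A change in the share of residual myocytes cannot be told apart here either. Acta2, smooth muscle alpha-actin and the usual marker of myofibroblasts, fell by 0.80 in CM-enriched fractions and by 0.74 in fibroblasts, with a difference of -0.05 (SE 0.179, adjusted p = 0.970). Without CM pair 1, 2 of the 16 genes were called and the median difference was 0.05.

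For the CArG box, the element bound by serum response factor in many muscle genes (searched on both strands), 5 of 29 promoters of the sarcomere list held a match (17.2%), against 1.78% of all 3871. Among the 7 called sarcomere genes with a sequence, only that of Actc1 did. It is shown with the box in capitals, which begins 3 bases after the start of the gene in this window.
Actc1 (chr3:121271778-121272077, minus strand): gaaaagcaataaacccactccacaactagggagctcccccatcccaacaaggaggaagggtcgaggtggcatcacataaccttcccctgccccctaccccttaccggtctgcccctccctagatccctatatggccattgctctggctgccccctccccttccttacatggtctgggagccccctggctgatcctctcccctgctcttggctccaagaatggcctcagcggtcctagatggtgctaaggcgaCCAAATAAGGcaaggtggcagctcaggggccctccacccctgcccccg

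Genes of calcium handling and cardiac ion channels differed in both directions, with 6 of 41 higher and 3 of 41 lower in CM-enriched fractions (median difference 0.03), beside 3.65% and 2.96% of all genes. With a random block 3 were called higher and 3 lower, and without the block 1 and 2. Camk2d, the delta chain of calmodulin-dependent kinase II, had 450 and 336 in CM UV (308 unpaired), against 638 and 532 in CM sham-UV, and 70.9, 59.3 and 68.2 in FB UV, against 380, 350 and 397 in FB sham-UV. It fell in both populations and further in fibroblasts (difference 1.93, SE 0.0976, adjusted p = 6.62e-07), and passed under every setting tried. The 5 other probe-sets of Camk2d did not pass, with differences between -0.87 and 1.53. Atp2a2, the calcium pump of the sarcoplasmic reticulum, had 3951 and 3651 in CM UV (3383 unpaired), against 4951 and 5000 in CM sham-UV, and 586, 258 and 524 in FB UV, against 1690, 1320 and 1364 in FB sham-UV (difference 1.36, SE 0.225, adjusted p = 0.00413). Of its 3 other probe-sets none passed, and 1 had the opposite sign (-1.34, adjusted p = 0.109). Cacna2d1, a subunit of the L-type calcium channel, differed by 2.49 (SE 0.487, adjusted p = 0.0107; 0.0826 without CM pair 1), and Itpr1 by 1.79, Atp1b1 by 0.64 and Casq2 by 0.48.

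The 3 with a lower change in CM-enriched fractions all encode channels. Cacna1g, a T-type calcium channel, differed by -1.17 (SE 0.152, adjusted p = 0.00102) and fell in CM-enriched fractions alone, by 1.23. Kcnq1, a delayed rectifier potassium channel, had 18.1 and 22.8 in CM UV (7.12 unpaired), against 72.2 and 158 in CM sham-UV, and was at the floor on all 6 FB arrays, so that its difference of -2.4 (SE 0.399, adjusted p = 0.00430) is the fall in CM-enriched fractions. Kcnj3, an inward rectifier, differed by -2.24 (adjusted p = 0.0206) with all 3 CM UV arrays and all 3 FB sham-UV arrays at the floor.

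Of 15 genes of the integrated stress response, 3 had a higher change in CM-enriched fractions and 0 a lower one, beside 3.65% and 2.96% of all genes. With a random block, and without the block, 1 was called higher. Ddit3 (CHOP, GADD153), the transcription factor that links this response to apoptosis, had 507 and 427 in CM UV (412 unpaired), against 193 and 116 in CM sham-UV, and 737, 614 and 900 in FB UV, against 762, 846 and 806 in FB sham-UV. It rose in CM-enriched fractions alone, and the difference was 1.75 (SE 0.231, adjusted p = 0.00114); it passed without the block as well (adjusted p = 0.0087). On the scale of intensity the treated CM arrays remained below the fibroblasts with or without UV. The other 2 were Trib3, described above, and Cebpg, a partner of ATF4 (1.57, SE 0.385, adjusted p = 0.0332), whose call was lost without CM pair 1 (adjusted p = 0.237) and without each FB pair in turn (0.0614 to 0.0888).

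Of 27 immediate early and AP-1 genes, 3 had a higher and 4 a lower change in CM-enriched fractions (median difference -0.65), beside 3.65% and 2.96% of all genes. With a random block, and without the block, 1 was called higher and 1 lower, and in the 11 arrays fitted alone 0 were called (limma; 13 of the 27 at an unadjusted p of 0.05). Jun, the AP-1 subunit, had 503 and 505 in CM UV (422 unpaired), against 423 and 463 in CM sham-UV, and 327, 298 and 299 in FB UV, against 111, 105 and 116 in FB sham-UV (difference -1.28, SE 0.243, adjusted p = 0.00921). Dusp6, the ERK phosphatase, had 200 and 177 in CM UV (184 unpaired), against 230 and 106 in CM sham-UV, and 676, 671 and 588 in FB UV, against 133, 137 and 167 in FB sham-UV (difference -1.88, SE 0.294, adjusted p = 0.00306). Both rose in fibroblasts alone, where treated and control arrays were far apart. Egr2 differed by -1.90 (adjusted p = 0.0200), and Ier3 is given above. In the other direction, Myc had 92.3 and 111 in CM UV (112 unpaired), against 39.9 and 46.0 in CM sham-UV, and 89.2, 68.8 and 71.6 in FB UV, against 103, 121 and 124 in FB sham-UV (difference 1.84, SE 0.364, adjusted p = 0.0111; 0.0564 without CM pair 1), and Klf10 and Klf9 differed by 0.92 and 0.86.

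Of 9 targets of p53, the factor that halts the cell cycle after DNA damage, 1 passed (11.1%, beside 6.61% of all genes). It was Ephx1, microsomal epoxide hydrolase, which rose by 2.02 in CM-enriched fractions and by 2.89 in fibroblasts (difference -0.87, adjusted p = 0.0462). Cdkn1a (p21), the cell cycle inhibitor, had 1631 and 1594 in CM UV (1695 unpaired), against 307 and 361 in CM sham-UV, and 2456, 2849 and 2132 in FB UV, against 370, 234 and 220 in FB sham-UV, with a difference of -0.93 (SE 0.356, adjusted p = 0.165). Mdm2, the ubiquitin ligase of p53, differed by -0.09 (SE 0.213, adjusted p = 0.931). Cdkn1a and Mdm2 rose in both populations, and treated and control arrays did not overlap in either. None of 30 heat shock and chaperone genes passed through its brightest probe-set (limma; 4 at an unadjusted p of 0.05; median difference -0.07), although a probe-set of Hspe1, the mitochondrial chaperonin HSP10, fell by 0.42 in CM-enriched fractions and rose by 0.26 in fibroblasts (adjusted p of the difference 0.000244).

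Among 42 antioxidant and detoxification genes, 6 had a higher and 3 a lower change in CM-enriched fractions, beside 3.65% and 2.96% of all genes. With a random block 3 were called higher and 0 lower, and without the block 0 were called (limma; 6 of the 42 at an unadjusted p of 0.05). Gstt2, a theta-class glutathione transferase, had 118 and 152 in CM UV (218 unpaired), against 23.2 and 40.7 in CM sham-UV, and 116, 80.5 and 70.8 in FB UV, against 109, 118 and 115 in FB sham-UV (difference 2.51, SE 0.273, adjusted p = 0.000317), and its other probe-set differed by 1.53 (adjusted p = 0.00231). Gstt1, of the same class, rose by 0.78 in CM-enriched fractions and fell by 0.62 in fibroblasts (difference 1.40, adjusted p = 0.0107). Akr1c14, a steroid-reducing aldo-keto reductase, had 14.9 and 20.2 in CM UV (17.7 unpaired), against 22.8 and 17.8 in CM sham-UV, and 13.7, 15.5 and 26.2 in FB UV, against 124, 160 and 130 in FB sham-UV (difference 2.74, SE 0.377, adjusted p = 0.00152). After UV the fibroblasts thus lay at the level of the CM arrays. Abcb1b, the multidrug transporter, rose in both populations and further in fibroblasts (2.49 in CM-enriched fractions and 4.23 in fibroblasts; difference -1.74, SE 0.305, adjusted p = 0.00596), and Cyp1b1 (0.997), Me1 (1.30) and Hmox1 (0.85) made up the rest of those higher in CM-enriched fractions.

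Of 32 integrin, caveolin and junction genes, 7 had a higher change in CM-enriched fractions and 3 a lower one, beside 3.65% and 2.96% of all genes. With a random block 4 were called higher and 2 lower, and without the block 0 and 1. Ptprm, a receptor phosphatase that binds to itself on neighbouring cells, had 13.6 and 19 in CM UV (8.89 unpaired), against 50.8 and 49.3 in CM sham-UV, and 6.88, 6.88 and 7.57 in FB UV, against 135, 94.0 and 104 in FB sham-UV (difference 2.31, SE 0.289, adjusted p = 0.000833). Since 2 treated FB arrays were at the floor, the fall in fibroblasts is a lower bound, and with the floor at the 40th percentile the difference was 1.13. Cdh2, N-cadherin, fell by 0.85 in CM-enriched fractions and by 1.76 in fibroblasts (difference 0.91, SE 0.164, adjusted p = 0.00678; 0.0591 without CM pair 1). Itgb3, integrin beta 3, differed by 1.22 (SE 0.216, adjusted p = 0.00636), and Ncam1 by 1.21, Itga1 by 0.83 and Ptprf by 0.79. The 3 lower in CM-enriched fractions were Ptk2, focal adhesion kinase (-1.15), Alcam (-0.96) and Itgam (-0.74), the last with 8 of the 11 arrays at the floor.

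Of 40 genes of the non-muscle cytoskeleton, 1 had a higher and 7 a lower change in CM-enriched fractions (median difference -0.32), beside 3.65% and 2.96% of all genes. With a random block, and without CM pair 1, 1 was called higher and 1 lower, and without the block 0 were called (limma; 6 of the 40 at an unadjusted p of 0.05). In the 11 arrays fitted alone, 0 genes were called of the cytoskeletal list, and likewise of the integrin, antioxidant and integrated stress response lists (limma; 11, 12, 11 and 3 at an unadjusted p of 0.05). Beside Nes, these were Capg, a capping protein of actin filaments (-1.22, SE 0.265, adjusted p = 0.0180), Mapre1 (-0.99), Actg1, gamma-actin (-0.85), Tpm3 (-0.77), Tuba1b (-0.50) and Pdlim1 (-0.44). Myl12b, a non-muscle regulatory light chain, rose in CM-enriched fractions alone (difference 0.80, SE 0.143, adjusted p = 0.00659). Without CM pair 1, Capg, Tpm3 and Myl12b no longer passed (adjusted p = 0.157, 0.0874 and 0.0619). The cytoskeletal and muscle lists thus had medians of opposite sign.

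The largest difference of all named genes was that of Cyp7b1, the oxysterol 7-alpha-hydroxylase. It had 20.4, 13.1 and 13.8 in FB UV, against 305, 386 and 309 in FB sham-UV, while it was at 6.88 on all CM UV arrays, against 8.66 and 6.88 in CM sham-UV (difference 4.26, SE 0.415, adjusted p = 0.000175). Nrg1, neuregulin 1, a ligand of ErbB receptors, and Col11a1, a fibrillar collagen chain, were read at the floor on all 5 CM arrays by the probe-sets with the largest called difference, and fell in fibroblasts by 2.65 and 2.54, so that these differences are the changes in fibroblasts. In CM-enriched fractions the other probe-set of Col11a1 had an estimate of -0.46. Those of Nrg1 were in part below 0 (-0.87 and -1.56), in part above 0 (0.04 to 0.29) or at the floor. For Nrg1, 1 of the 6 others passed (2.59), while another had estimates of -1.56 in CM-enriched fractions and -1.58 in fibroblasts (difference 0.02, adjusted p = 1), and the 5 that did not pass had differences of -0.24 to 2.93. For Col11a1 the other probe-set had a difference of 2.08 (adjusted p = 0.00976). CM controls were also low, between 6.92 and 21, for Cmklr1, a chemerin receptor (2.90, adjusted p = 0.00658), Tbxa2r, the thromboxane receptor (2.78, adjusted p = 0.0101), Acadsb, an acyl-CoA dehydrogenase (2.69, adjusted p = 0.00303), and Plpp3, a lipid phosphatase (2.58, adjusted p = 0.00196), all of which fell in fibroblasts alone through these probe-sets. The brighter probe-sets of Tbxa2r and Plpp3 had differences of 0.26 (adjusted p = 0.592) and 0.19 (adjusted p = 0.915). With the higher floor, Acadsb and Plpp3 did not pass (adjusted p = 0.146 and 0.283, limma). The difference of Cmklr1 was 1.74 without CM pair 1 and 4.06 without CM pair 2. Ncoa1, a coactivator of nuclear receptors, had 33.4 and 77.9 in CM UV but 8.75 on the unpaired array, against 10.4 and 9.96 in CM sham-UV, and the call of its difference of 3.28 (SE 0.725, adjusted p = 0.0196) was lost without CM pair 2 (adjusted p = 0.118) and without FB pair 3 (0.0573); it was 1.33 with the higher floor.

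Among the genes with a lower change in CM-enriched fractions, Ptgfr, the receptor of prostaglandin F2-alpha, had 9.71 and 20.9 in CM UV (32.9 unpaired), against 123 and 129 in CM sham-UV, with all FB arrays at the floor (difference -3.14, SE 0.342, adjusted p = 0.000317). Its 2 other probe-sets, the brightest among them, had differences of -1.06 (adjusted p = 0.170) and -1.59 (adjusted p = 0.0736) and did not pass. Cd80, a costimulatory ligand of T cells, had 19.6 and 15.7 in CM UV (11.8 unpaired), against 7.91 and 7.08 in CM sham-UV, and 156, 105 and 186 in FB UV, against 9.66, 8.40 and 10.1 in FB sham-UV (difference -2.72, SE 0.609, adjusted p = 0.0206). Gbp2, an interferon-induced GTPase, had 37 and 11.3 in CM UV (26.3 unpaired), against 6.88 on both CM sham-UV arrays, and 148, 135 and 133 in FB UV, against 9.54, 10.8 and 6.88 in FB sham-UV (difference -2.38, SE 0.462, adjusted p = 0.0104). Both were thus higher after UV on every array, and further in fibroblasts. The call of Gbp2 was lost without CM pair 2 (adjusted p = 0.0673), and that of Cd80 without either CM pair (0.0863 and 0.0793) and without FB pair 1 or 3 (0.0510 and 0.0565).

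H19, an imprinted non-coding RNA of fetal tissue, and Sparcl1, a matrix protein also made by vessels, fell in CM-enriched fractions from very unequal levels in the pairs. H19 had 379 and 13.1 in CM UV (24.0 unpaired), against 1791 and 149 in CM sham-UV, and Sparcl1 43.0 and 10.9 (12.9 unpaired), against 522 and 40.1. Through these probe-sets both were at or near the floor in fibroblasts, and the differences were -2.65 (SE 0.472, adjusted p = 0.00659, limma) and -2.58 (SE 0.418, adjusted p = 0.00379). In pair 1, the sum of 7 endothelial markers was likewise highest on the CM sham-UV array (950), and its part in these values was not tested. A second, brighter probe-set of H19 fell by 1.55 in CM-enriched fractions and by 2.15 in fibroblasts, with a difference of 0.60 (adjusted p = 0.337, limma). Medag had 6.88 and 8.23 in CM UV (42.8 unpaired), against 60.5 and 45.1 in CM sham-UV, and 242, 145 and 123 in FB UV, against 314, 196 and 115 in FB sham-UV. It differed by -2.56 (SE 0.261, adjusted p = 0.000244; 0.0583 with the higher floor).

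Matrix genes and growth factors that the study named did not pass through their brightest probe-sets: Col1a1 (-0.68, adjusted p = 0.170), Fn1 (-0.17, adjusted p = 0.663), Bgn (-0.12, adjusted p = 0.834), Tnc (-0.72, adjusted p = 0.350), Tgfb1 (-0.29, adjusted p = 0.774) and Fgf2 (-0.48, adjusted p = 0.778). Of the 3 other probe-sets of Col1a1, the collagen I alpha 1 chain, 2 passed, with differences of -0.90 (adjusted p = 0.00619) and -0.78 (adjusted p = 0.0463).

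Differences in both directions were found in lists of repair, matrix and fuel genes, from which the following were chosen after their values had been seen. Over all genes, 3.65% had a higher and 2.96% a lower change in CM-enriched fractions. Calls in these lists were not counted under the other settings. Of 19 DNA repair genes 2 had a higher change in CM-enriched fractions, Mgmt, the O6-alkylguanine transferase (1.06, adjusted p = 0.0196, with -0.73 and no call for its other probe-set), and Apex1, the abasic site endonuclease (0.80, adjusted p = 0.0231), and 1 a lower change, Parp1 (-0.89, adjusted p = 0.0249). Of 27 matrix proteases and inhibitors 2 were higher and 3 lower. Plaur, the urokinase receptor, rose by 1.83 in fibroblasts alone (difference -1.70, adjusted p = 0.00239), and Serpine2, an inhibitor of serine proteases, fell by 2.54 there alone (difference 2.15, adjusted p = 0.0111). Lpl, lipoprotein lipase, likewise fell in fibroblasts alone, by 1.67 (difference 1.83, adjusted p = 0.000834).

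Genes with a higher change in CM-enriched fractions had a longer median span than others. By the span of the gene in GRCr8, the median length was 35.7 kb for 173 genes with a higher change, 17.9 kb for 140 genes with a lower change and 21.7 kb for all 4717 genes with a length. Genes over 100 kb made up 31.2%, 7.86% and 13.5%. The excess lay in the 127 genes that were called down in fibroblasts (median 74.8 kb, 41.7% over 100 kb), while the 46 others with a higher change had a median of 8.41 kb. Examples are Nrg1 (1053 kb), Ptprm (705 kb), Cacna2d1 (428 kb), Camk2d (264 kb), Cdh2 (214 kb) and Itga8 (197 kb). The 127 genes were picked by a fall in fibroblasts, and the median gene over 100 kb fell in both populations. Lengths of all genes called down in fibroblasts were not set beside them. The excess thus cannot be tied to the difference between the populations. The share of genes with a higher change in CM-enriched fractions was 9.38% over 200 kb, against 2.24% between 10 and 20 kb, and the share with a lower change 1.39%, against 4.48%.

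The median gene over 200 kb fell in every pair, by 0.29 and 0.26 in the CM pairs and by 0.37, 0.22 and 0.44 in the FB pairs, and the median difference in that class was 0.03. Among genes above the floor on nearly all arrays (at least 4 of 5 CM and 5 of 6 FB arrays), the median gene over 200 kb fell by 0.52 in CM-enriched fractions and by 0.64 in fibroblasts, with a median difference of 0.15 and 14.3% of 175 genes higher in CM-enriched fractions. The CM and FB pairs overlapped in these medians. Gene length was examined after the differences had been seen, and lengths are a description with no test.

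**Figure D5:**
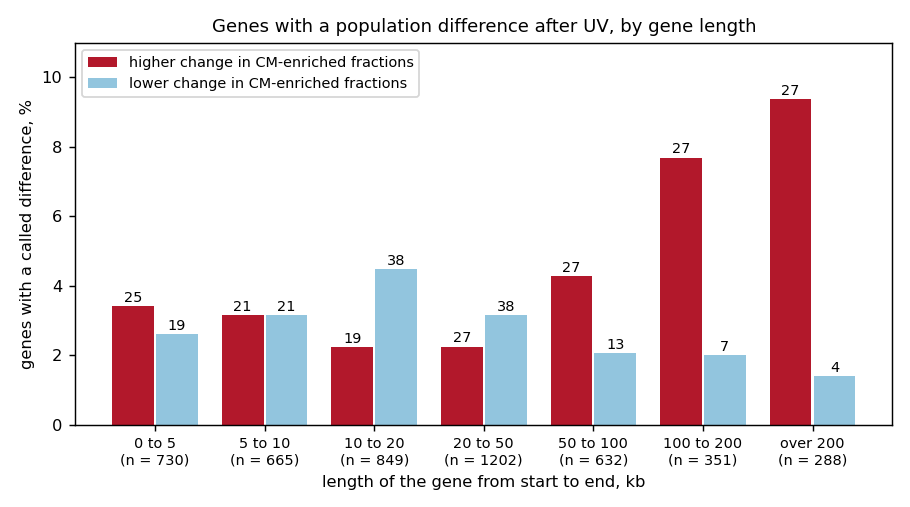
Share of genes with a called difference between the populations after UV, by the length of the gene, with the number of such genes above each bar. The share with a higher change in CM-enriched fractions is 9.38% among 288 genes over 200 kb and 2.24% among 849 genes of 10 to 20 kb; the share with a lower change is 1.39% and 4.48%.

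The arrays carry 2 scales as deposited. The mean with 2% trimmed at each end was about 1002 on CM UV arrays 2 and 3 and CM sham-UV array 2, and about 200 on the other 8, and no pair mixes them. With CM pair 1 alone, which has the scale of the fibroblast arrays, the change in CM-enriched fractions was higher for 291 probe-sets and lower for 307. With CM pair 2 alone the numbers were 202 and 146. Of the 555, 157 passed whichever pair of the contrast was left out, 83 higher and 74 lower, and of the 36 opposite changes 23 did so.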

How the data were processed

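RNA from CM-enriched fractions and cultures of fibroblasts was hybridised to rat genome arrays, and the deposited values are linear intensities per probe-set, which the authors scaled per array before deposit. The study names GeneChip software (Affymetrix) for the scanner. What turned the scans into the deposited values per probe-set is not given in the sources used here. The authors' own analysis used gcrma background correction, variance stabilisation and a linear model with the experiment as a term, and its values are not the deposited ones. Kits for labelling differed between experiments but not within them.

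Intensities were scaled to the median 75th percentile, floored at the 20th percentile, put on the log2 scale and quantile normalized. limma 3.58.1 (R 4.3.3, statmod 1.5.0) was fitted to all 35 arrays with the numbered experiment as a block (11 residual degrees of freedom) and a variance trend. The difference of the 2 changes was tested for 8740 probe-sets (59 controls left out), two-sided, with Benjamini-Hochberg adjustment and a threshold of 0.05. The number of arrays limits the precision. The study states independent experiments for each stressor, and the numbers in the titles were taken to mark them; p-values measure the spread between these arrays. Scripts were tested on simulated data, with changes put into CM-enriched fractions alone and no UV change shared by both populations. Wrong calls from a shared change that reaches the floor in a single population were thus not measured. Of simulated differences of 1.5, 2 and 4 times, 18%, 38% and 70% were called, and 7.35% of the calls were wrong. A probe-set that did not pass may thus still differ.

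A single gene symbol was available for 7006 probe-sets, several for 308 and none for 1426. A gene in a list is read through its brightest probe-set. Genes named in full are the 12 highest and 12 lowest differences, the opposite changes of largest size, the first 4 that passed in each of the lists described, and genes the study named. Members and lists were chosen with earlier results of these data known. Promoters are RefSeq sequences of GRCr8. Alternatives were other blocks, the 11 arrays alone, no quantile step, a floor at the 40th percentile, a pseudocount of 20 instead of a floor, low probe-sets left out, no trend, robust variances and each pair left out.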

Additional observations from a re-analysis of the deposited data

Results flagged for a closer look

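The change after UV differed between CM-enriched fractions and fibroblasts, by the test of the difference itself, for 317 probe-sets with a higher and 238 with a lower change in CM-enriched fractions, and 36 of these changed in opposite directions. For 157 probe-sets the difference after UV departed in turn from the difference after ionising radiation. Groups of 2 or 3 arrays are too small for a search for single outlying arrays, so that only this kind of result is listed.

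Of the probe-sets described, the log2 difference was above 0 for Cyp7b1 (4.26), Ncoa1 (3.28), Cmklr1 (2.90), Tbxa2r (2.78), Akr1c14 (2.74), Acadsb (2.69), Nrg1 (2.65), Plpp3 (2.58), Myl9 (2.54), Col11a1 (2.54), Gstt2 (2.51), Cacna2d1 (2.49), Ptprm (2.31), Slc40a1 (2.29), Actc1 (2.23), Itga8 (1.93), Camk2d (1.93), Trib3 (1.86), Myc (1.84), Zfp36l1 (1.81), Ddit3 (1.75), Pdgfa (1.61), Cebpg (1.57), Gstt2 (1.53), Atp2a2 (1.36), Itgb3 (1.22), Tpm1 (1.11), Pdlim3 (1.01), Tnni3 (0.92), Cdh2 (0.91), Tagln (0.91), Myl12b (0.80). It was below 0 for Arg1 (-4.12), Ackr3 (-3.23), Ptgfr (-3.14), Slc2a1 (-2.77), Cd80 (-2.72), H19 (-2.65), Scd (-2.63), Sparcl1 (-2.58), Medag (-2.56), Ly6l (-2.45), Kcnq1 (-2.397), Gbp2 (-2.38), Met (-2.28), Dusp6 (-1.88), Nes (-1.88), Ptpro (-1.83), Ier3 (-1.78), Abcb1b (-1.74), Fdps (-1.70), Ugdh (-1.46), Sqle (-1.40), Msmo1 (-1.32), Jun (-1.28), Capg (-1.22), Cacna1g (-1.17), Fdft1 (-1.09), Tpm3 (-0.77). Genes that occur more than once have several probe-sets. The values are those of the report, and the populations also differed in culture, elutriation and myocyte markers, whose part in them was not tested.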

How the results depend on the processing

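The number of probe-sets with a difference between the populations depended on how the experiments entered the fit. With no replicate block 52 were higher, 26 lower and 4 opposite, and 76 of these were among the 555. With a random replicate block, which also uses the unpaired CM array, the numbers were 178, 113 and 19 (241 shared), and with the 11 UV and sham-UV arrays alone 5, 3 and 1 (7 shared). At an adjusted p of 0.005 they were 72 and 61. Arrays of the same number deviated together from their group means by correlations of 0.236 and 0.188 in CM pairs and 0.366, 0.151 and 0.0727 in FB pairs, and the third FB sham-UV array correlated better with another UV array (0.134), so that the numbers do not pair every array in these data. When 1 UV array was left out, with its control where it has one, 202 to 316 were higher, 146 to 307 lower and 22 to 48 opposite; the 316 is without the unpaired CM array, and with a pair left out the highest was 291. The cause of these shifts was not tested, beyond the fewer arrays or degrees of freedom. Without quantile normalization, with the higher floor, the pseudocount, low probe-sets left out, no trend or robust variances, each count of higher, lower and opposite probe-sets stayed within 1.5 times that reported. The share that was higher was 57.1%, against 66.7% without the block, 53.3% without quantile normalization and 52.6% with the higher floor. The sign of the difference was kept for all 555, except for 554 without quantile normalization and 538 with the higher floor. All settings use the same arrays, so that a kept sign, here and for the named differences below, is little evidence.

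Of the 59 named differences that passed, 43 no longer did so without the block, 26 with a random block, 57 in the 11 arrays alone, 4 with the higher floor, and 11 without CM pair 1, 7 without CM pair 2 and 2, 2 and 3 without FB pairs 1, 2 and 3; none changed direction. At or near the floor an intensity gives only a bound, which limits a change seen in 1 population.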
